A study of Mus musculus with 16 samples.

Results

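The genes described here are 9 that mark the basal keratinocyte and the structure that holds it to the basement membrane. They were taken by name, as every probe set of the array table whose gene symbol was Krt5, Krt14, Itga6, Itgb4, Col17a1, Dst, Lama3, Lamb3 or Trp63, which gave 19 of the 45101 probe sets of the table. The filter on low values left 18 of these 19 and 12580 genes in all, all 9 members among them. A gene with several probe sets was read on the brightest of them by mean intensity.

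The study asked which transcripts of mouse skin respond when TERT, the protein subunit of telomerase, is withdrawn. All mice were iK5-TERT animals, which carry K5-tTA, a tetracycline-off transactivator under the keratin 5 promoter, and tetop-TERT, a TERT transgene that it drives, so transgenic TERT is directed to basal interfollicular epidermis and outer root sheath and doxycycline switches it off. Doxycycline had also been given to all of them early in life, and the mice were 60 days old. In the TERT-off cohort 2 mice received doxycycline by injection at 8 µg per g, and in the TERT-on cohort 2 mice received PBS. Each mouse gave full skin biopsies of 3 cm2, freed of subcutaneous fat, at 0, 6, 12 and 24 h, for 16 arrays, 2 in each of the 8 groups. The 0 h biopsy came before the injection by the study's methods, although the labels list the agent there too. The labels give each array a replicate number, 1 or 2, and the arrays of 1 cohort and number were taken as serial biopsies of 1 mouse, which the labels do not state. What follows calls them mouse 1 and mouse 2 on that reading, and every value per mouse or without a mouse rests on it. Deviations from the group means correlated at 0.20 on average between arrays taken as 1 mouse (lowest -0.15), against 0.14 between same-numbered arrays of opposite cohorts at different times, so the arrays do little to settle it.

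Basal keratinocytes are the dividing layer of the epidermis and of the outer root sheath, and they are recognised by the keratin pair K5 and K14, whose filaments run to the cell base. There they end in hemidesmosomes, where plectin and the dystonin isoform BP230 join the filaments to the integrin α6β4 and to collagen XVII, and these in turn bind laminin-332, a trimer whose chains include α3 and β3, in the basement membrane. p63, the product of Trp63, is the transcription factor that maintains the basal state, and inherited loss of the keratins or of the anchoring proteins causes blistering skin.

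The 300 base promoter windows that RefSeq gives for the members (GRCm38.p6, 250 bases before to 50 after an annotated transcript start) are shown for Krt5, since a keratin 5 promoter drives the transactivator, and for Col17a1, Dst and Lamb3, 3 of the genes that separated the cohorts. Capitals mark a match to TATAAA in Col17a1 and to GGGCGG, the Sp1 motif, in the first Dst window. The table gave windows for 5 members, and that of Krt14 and a second Lamb3 window that overlaps the first are not printed. The Dst and Lamb3 windows lie at transcript starts inside the annotated gene.
Krt5 (chr15:101712856-101713155, minus strand): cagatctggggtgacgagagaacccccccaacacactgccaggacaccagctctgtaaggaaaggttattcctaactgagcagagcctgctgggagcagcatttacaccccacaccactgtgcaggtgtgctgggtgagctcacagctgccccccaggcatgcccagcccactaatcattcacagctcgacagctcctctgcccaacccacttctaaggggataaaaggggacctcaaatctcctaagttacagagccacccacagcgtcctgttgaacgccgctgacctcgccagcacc
Col17a1 (chr19:47691993-47692292, minus strand): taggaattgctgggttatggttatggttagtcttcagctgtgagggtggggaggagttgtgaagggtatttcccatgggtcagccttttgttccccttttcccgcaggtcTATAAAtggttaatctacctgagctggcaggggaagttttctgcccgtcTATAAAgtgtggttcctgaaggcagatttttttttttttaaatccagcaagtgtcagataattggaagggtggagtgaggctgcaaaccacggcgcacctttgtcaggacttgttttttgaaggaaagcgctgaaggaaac
Dst, upstream window (chr1:34011345-34011644, plus strand): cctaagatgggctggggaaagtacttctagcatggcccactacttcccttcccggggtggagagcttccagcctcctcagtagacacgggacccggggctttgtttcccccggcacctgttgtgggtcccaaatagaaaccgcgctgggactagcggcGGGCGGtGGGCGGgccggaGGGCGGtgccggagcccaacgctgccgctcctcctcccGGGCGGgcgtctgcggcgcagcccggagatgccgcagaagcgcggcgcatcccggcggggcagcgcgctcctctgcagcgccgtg
Dst, downstream window (chr1:34160010-34160309, plus strand): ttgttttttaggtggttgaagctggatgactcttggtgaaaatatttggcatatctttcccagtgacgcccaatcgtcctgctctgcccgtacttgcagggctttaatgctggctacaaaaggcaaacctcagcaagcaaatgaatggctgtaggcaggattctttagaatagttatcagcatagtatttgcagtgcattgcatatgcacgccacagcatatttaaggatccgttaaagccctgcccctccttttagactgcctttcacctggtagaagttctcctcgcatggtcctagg
Lamb3 (chr1:193301744-193302043, plus strand): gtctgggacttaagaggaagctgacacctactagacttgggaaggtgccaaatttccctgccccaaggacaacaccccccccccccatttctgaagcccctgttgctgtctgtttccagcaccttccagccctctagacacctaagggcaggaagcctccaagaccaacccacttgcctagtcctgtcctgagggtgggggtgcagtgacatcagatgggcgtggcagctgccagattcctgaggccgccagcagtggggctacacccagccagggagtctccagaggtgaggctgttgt
The Col17a1 window held 2 TATAAA motifs, the first at -140 and the second at -91 from the start, and the upstream Dst window held 4 GGGCGG motifs, the outermost at -92 and -35. TATAAA occurred in 13.6% and GGGCGG in 35.7% of the 32851 mouse promoter windows of the same length, on either strand. None of the other motifs searched, TGANTCA (AP-1, in 7.8% of windows), GCCNNNGGC (AP-2, 16.6%), CACGTG (E-box of Myc, 7.2%) and CTTTGA (TCF/LEF, 16%), was in any window of the 5 genes, and Krt5, Krt14, Lamb3 and the downstream Dst window matched none of the 6. These letters say nothing about which factor binds there.

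Over 6, 12 and 24 h 4 of the 6 anchoring genes were called higher in TERT-off skin, and neither keratin gene nor Trp63 was called. The test was limma on log2 intensity with the mouse as a random block, two-sided, adjusted by Benjamini-Hochberg over all 25563 probe sets kept, and a gene was called at an adjusted p under 0.05. In TERT-off skin 4 of the 9 members were called higher, Lamb3 (1.94-fold), Dst (1.63-fold), Col17a1 (1.47-fold) and Lama3 (1.32-fold), and 0 were called lower. Of all 12580 genes, 16.9% were called higher and 12.6% lower in that comparison, so calls in either direction were common, and with each array centred on its median the split was 1757 genes higher and 2120 lower, against 2122 and 1588 here. The median log2 difference was 0.25 over the 9 members and 0.04 over all genes tested. In whole skin, more cells of a type and more RNA per cell cannot be told apart. None of these calls was kept without TERT-on mouse 1 or without TERT-on mouse 2, although the differences hardly moved. They were 0.97 and 0.94 for Lamb3 against 0.95 in the full set, and 0.75 and 0.66 for Dst against 0.70. For Col17a1 they were 0.59 and 0.53 against 0.56, and for Lama3 0.40 and 0.41 against 0.40. Such a fit has 1 array in each group of that cohort, and the standard error rose, for Dst from 0.16 to 0.23.

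**Figure D1:**
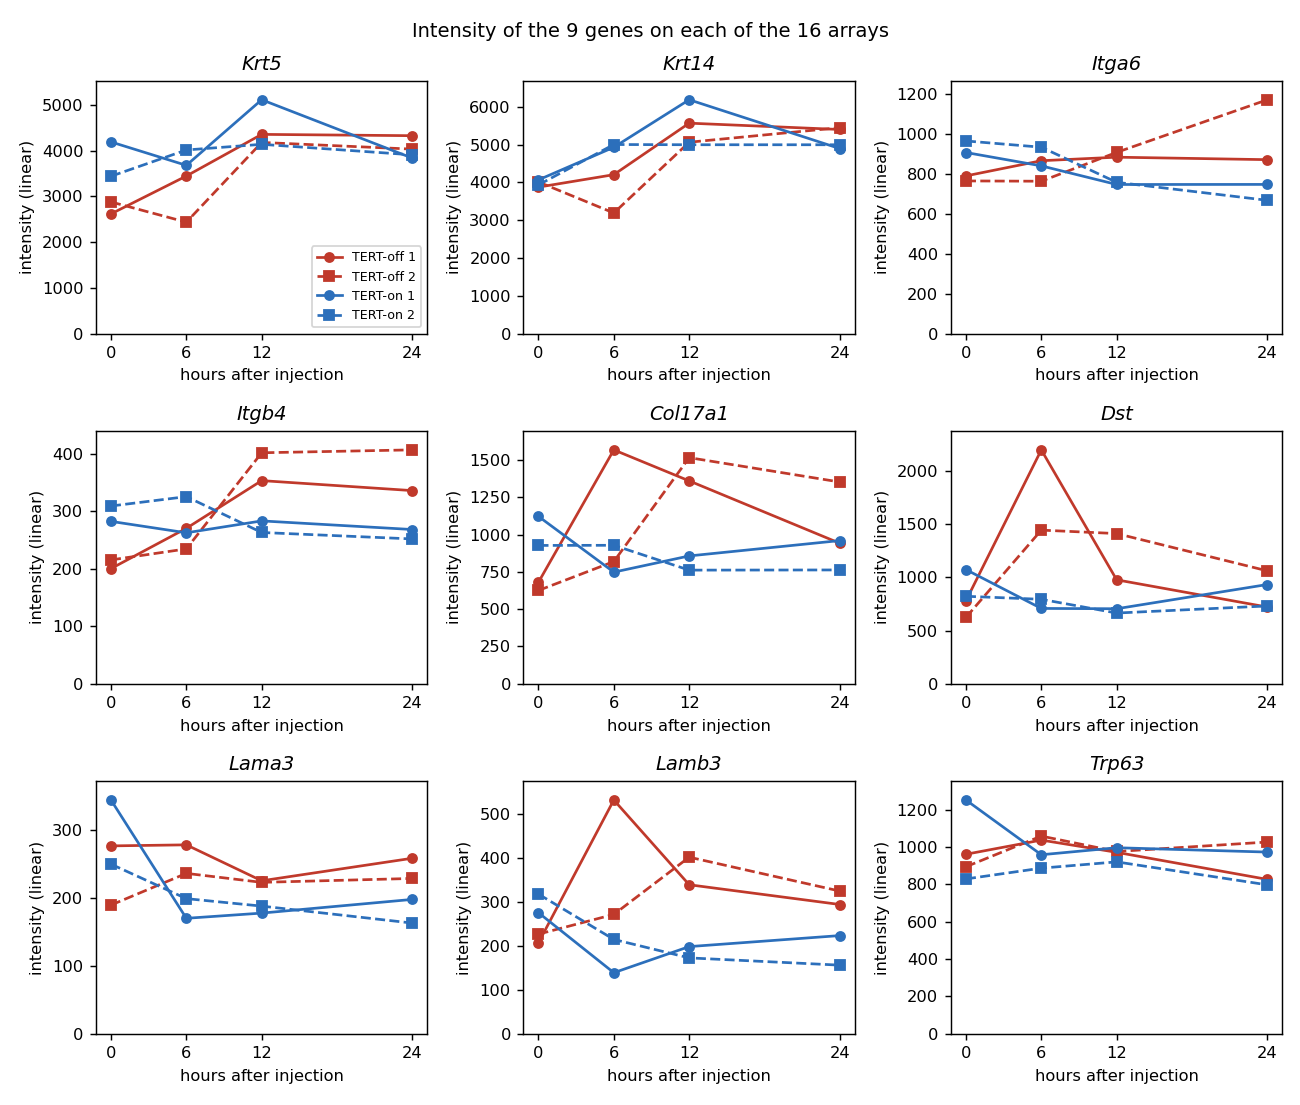
Intensity of the probe set that stands for each gene (linear scale from 0, deposited values) against the hour of the biopsy; each mouse is a line, red for TERT-off and blue for TERT-on. In Lamb3 and Lama3 the 6 TERT-off points after 0 h lie above the 6 TERT-on points, while the Krt5 and Krt14 lines of the cohorts cross.

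Lamb3 had the highest difference of the 9 members over 6 to 24 h, and Lama3, the second laminin-332 chain among them, the lowest of the 4 that were called. Lamb3, which encodes the β3 chain, read 532 and 272, then 339 and 402, then 294 and 325 in TERT-off skin at 6, 12 and 24 h (mouse 1 before mouse 2 at each time), against 139 and 215, then 198 and 173, then 223 and 156 in TERT-on skin. Each TERT-off array after injection was above each TERT-on array, and the lowest TERT-off value, 272, exceeded the highest TERT-on value, 223. The share of all genes that parted the arrays in this way was not counted, so the pattern is not read as particular to Lamb3. The log2 difference over 6 to 24 h was 0.95 (SE 0.19, adjusted p = 0.00684), and it was 1.14 at 6 h, 1.00 at 12 h and 0.73 at 24 h (SE 0.31 each), none of which passed on its own (adjusted p = 0.0803, 0.0815 and 0.220). Without TERT-on mouse 1 the pooled difference was 0.97 with an adjusted p of 0.0612, and without TERT-on mouse 2 it was 0.94 with 0.112.

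Lama3, the α3 chain, read 278 and 236, then 225 and 223, then 258 and 229 in TERT-off skin at the same times, against 170.0 and 199, then 178 and 188, then 198 and 163 in TERT-on skin. These groups did not overlap either, with a lowest TERT-off value of 223 and a highest TERT-on value of 199, again without a count over all genes. The log2 difference was 0.40 (SE 0.13, adjusted p = 0.0411) over 6 to 24 h, close to the threshold. It passed the threshold no longer after quantile normalization (0.38, adjusted p = 0.0597), after centring each array on its median (0.34, 0.0791), with no filter on low values (0.062), with 1 mean per mouse (0.0518), without TERT-off mouse 1 (0.33, 0.12), or without TERT-on mouse 1 (0.40, 0.167) or 2 (0.41, 0.208). The other Lama3 probe set stayed near background and was not tested.

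Among the hemidesmosome proteins, Dst and Col17a1 were called and the integrin genes were not. Dst, which encodes dystonin and includes BP230 among its isoforms, read 2201 and 1445, then 978 and 1413, then 721 and 1062 in TERT-off skin at 6, 12 and 24 h, against 708 and 794, then 705 and 665, then 933 and 732 in TERT-on skin. The 6 h arrays of both TERT-off mice were the highest of their own mouse, and at 24 h the mouse 1 value was below both TERT-on values. Over 6 to 24 h the log2 difference was 0.70 (SE 0.16, adjusted p = 0.0115). It was 1.25 at 6 h (SE 0.26, adjusted p = 0.0441), 0.78 at 12 h (adjusted p = 0.0977) and 0.08 at 24 h (adjusted p = 0.902).

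Dst was the 1 member called at a single time, at 6 h, where 1.14% of genes were called higher and 0.596% lower. That call was lost without TERT-off mouse 1 (log2 difference 0.95, adjusted p = 0.240), without TERT-on mouse 1 (1.17, 0.549), without TERT-on mouse 2 (1.33, 0.274), with arrays centred on the median (1.18, 0.0525), with the mean of the 4 probe sets (1.10, 0.0602) and with no filter (0.0992). The pooled call was lost without TERT-on mouse 1 (0.75, adjusted p = 0.0855) or without TERT-on mouse 2 (0.66, 0.163). All 4 Dst probe sets were called higher over 6 to 24 h, with log2 differences of 0.70, 0.79, 0.80 and 0.61. They are not independent, since they read the same gene on the same arrays, and the table does not say which isoform each reads. In 2 of them, 1421276_a_at and 1423626_at, all 6 TERT-off arrays lay above all 6 TERT-on arrays, a pattern that was not counted over all probe sets.

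Col17a1 encodes collagen XVII, the transmembrane collagen also called BP180. It read 1569 and 819.7, then 1361 and 1517, then 942 and 1354 in TERT-off skin at 6, 12 and 24 h, against 749 and 929, then 857 and 762, then 961 and 763 in TERT-on skin. Of the 6 TERT-off values 4 were above every TERT-on value, and the remaining 2, mouse 2 at 6 h and mouse 1 at 24 h, were not. The log2 difference was 0.56 (SE 0.17, adjusted p = 0.0328) over 6 to 24 h, and 0.44, 0.83 and 0.40 at 6, 12 and 24 h (SE 0.28 each, adjusted p = 0.364, 0.0939 and 0.466). With no filter on low values the adjusted p was 0.0719, without TERT-on mouse 1 it was 0.154 (log2 difference 0.59), and without TERT-on mouse 2 it was 0.238 (0.53).

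The α6β4 integrin genes were not called, and their TERT-off values were below the TERT-on values at 0 h, overlapped them at 6 h and were above them later. At 0 h Itga6 read 789.5 and 764 in TERT-off mice, against 907 and 965 in TERT-on mice, and Itgb4 read 200.04 and 215 in TERT-off mice, against 282 and 309 in TERT-on mice. Itga6 read 866 and 763, then 883 and 907, then 871 and 1171 in TERT-off skin at 6, 12 and 24 h, against 839.8 and 933, then 746 and 757, then 747 and 667 in TERT-on skin. Itgb4 read 270.1 and 234, then 353 and 401, then 336 and 406 in TERT-off skin, against 262 and 325, then 283 and 263, then 268 and 252 in TERT-on skin. At 6 h the cohorts overlapped in both genes, with the highest value in a TERT-on mouse and the lowest in a TERT-off mouse. At 12 and 24 h both TERT-off values of both genes were above both TERT-on values. The share of all genes parted in this way at 0, 12 or 24 h was not counted. The log2 differences at 6, 12 and 24 h were -0.12, 0.25 and 0.52 for Itga6 (SE 0.15 each) and -0.22, 0.47 and 0.51 for Itgb4 (SE 0.16 each). None passed, the smallest adjusted p being 0.0882 for Itga6 at 24 h, and the pooled values of 0.21 for Itga6 (SE 0.09, adjusted p = 0.0973) and 0.25 for Itgb4 (SE 0.10, adjusted p = 0.0828) did not pass either. Without TERT-off mouse 1, Itga6 at 24 h was 0.73 with an adjusted p of 0.0444. The dimmer Itga6 probe set, 1422444_at, gave 0.01 over 6 to 24 h (SE 0.13, adjusted p = 0.973).

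On their brightest probe sets the keratin genes gave negative differences at 6 h and differences near 0 afterwards, and none passed. Before injection Krt5 was already at -0.47 (SE 0.15), and Krt14 at -0.02 (SE 0.12). Krt5 read 3444 and 2435, then 4355 and 4179, then 4327 and 4033 in TERT-off skin at 6, 12 and 24 h, against 3678 and 4014, then 5113 and 4138, then 3835 and 3908 in TERT-on skin. Krt14 read 4206 and 3191, then 5570 and 5065, then 5402 and 5451 in TERT-off skin, against 4932 and 5004, then 6190 and 4998, then 4896 and 4998 in TERT-on skin. Both TERT-off values were below both TERT-on values at 6 h in each gene, and the cohorts overlapped at 12 h. At 24 h both TERT-off values were above both TERT-on values. The share of all genes parted in this way at 6 or 24 h was not counted.

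The log2 differences at 6, 12 and 24 h were -0.41, -0.11 and 0.11 for Krt5 (SE 0.15 each, adjusted p = 0.163, 0.691 and 0.758) and -0.44, -0.07 and 0.13 for Krt14 (SE 0.12 each, adjusted p = 0.0830, 0.764 and 0.599). Over 6 to 24 h they were -0.14 for Krt5 (SE 0.10, adjusted p = 0.313) and -0.12 for Krt14 (SE 0.08, adjusted p = 0.241), and the errors leave room for a small change in either direction. The 3 Krt14 probe sets did not agree over 6 to 24 h. A dimmer one, 1455573_at, was called higher (0.45, SE 0.15, adjusted p = 0.0427). The remaining one, 1460347_at, gave -0.20 (adjusted p = 0.214), and the mean of the 3 gave 0.04. At 6, 12 and 24 h 1455573_at gave 0.10, 0.50 and 0.75 (SE 0.24 each), and 1460347_at gave -0.61, -0.17 and 0.18 (SE 0.18 each). One more probe set, assigned to both Krt17 and Krt14, was left unnamed.

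Trp63 read 1038 and 1059, then 972 and 977, then 827 and 1027 in TERT-off skin at 6, 12 and 24 h, against 959 and 887, then 997 and 921, then 973 and 798 in TERT-on skin. The ranges overlapped, and 3 of 6 TERT-off values lay above the highest TERT-on value of 997. The log2 difference was 0.09 over 6 to 24 h (SE 0.11, adjusted p = 0.562) and at most 0.18 at a single time (6 h, adjusted p = 0.560). The 3 dimmer Trp63 probe sets gave 0.29, 0.30 and 0.39, of which 1459581_at, at 0.39, was called (SE 0.12, adjusted p = 0.0322), and the mean of the 4 was 0.27 (adjusted p = 0.0208). Whether Trp63 was called thus depended on the probe sets used.

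**Figure D2:**
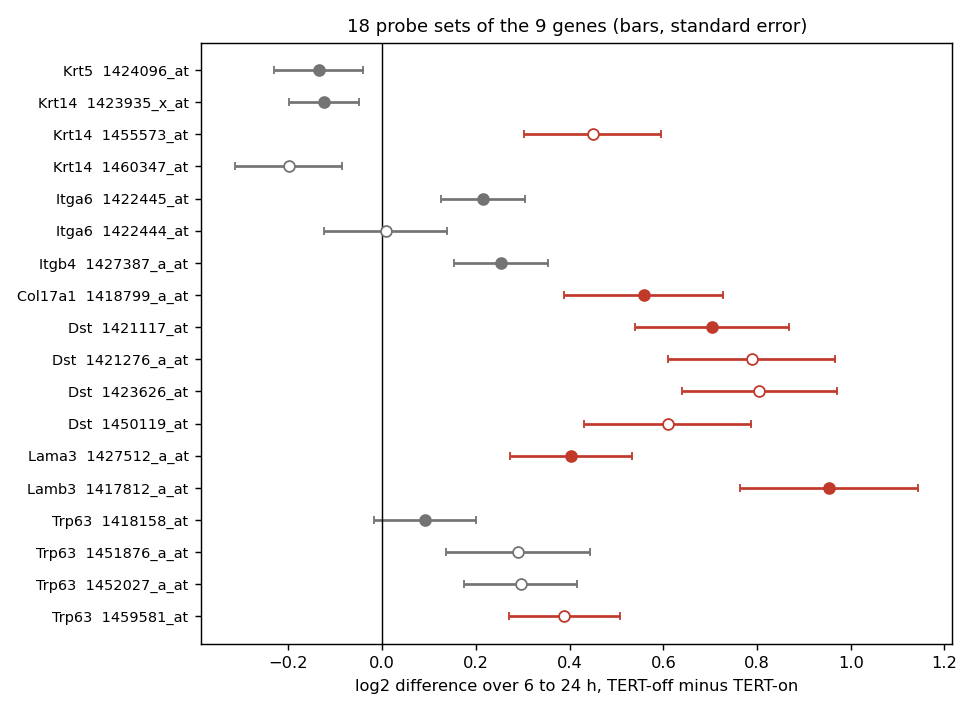
Log2 difference between TERT-off and TERT-on over 6 to 24 h (x axis) for the 18 probe sets tested, with bars for the standard error. Red marks an adjusted p under 0.05 and filled points the probe set that stands for the gene; all 4 Dst probe sets lie between 0.61 and 0.80, while those of Krt14 fall on both sides of 0.

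At 12 h and at 24 h 0 of the 9 members were called, where 2.57% and 2.42% of all genes were called in either direction (323 and 304 genes). At an unadjusted p under 0.05, 4 members passed at 12 h (Itgb4, Col17a1, Dst and Lamb3) and 3 at 24 h (Itga6, Itgb4 and Lamb3), all higher in TERT-off skin. Of all 12580 genes, 3766 at 12 h and 2856 at 24 h had such a p in either direction. The order of the members by difference changed with time. Dst came first at 6 h, ahead of Lamb3 by less than the standard error of either, and Lamb3 at 12 and 24 h, and at 24 h Itga6 and Itgb4 followed Lamb3 while Dst, on its brightest probe set, stood with the keratins and Trp63. The place of Dst at 24 h depended on the probe set, since 1421276_a_at gave 0.54 there and 1423626_at 0.51, level with Itga6 and Itgb4, while 1450119_at gave -0.11.

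**Figure D3:**
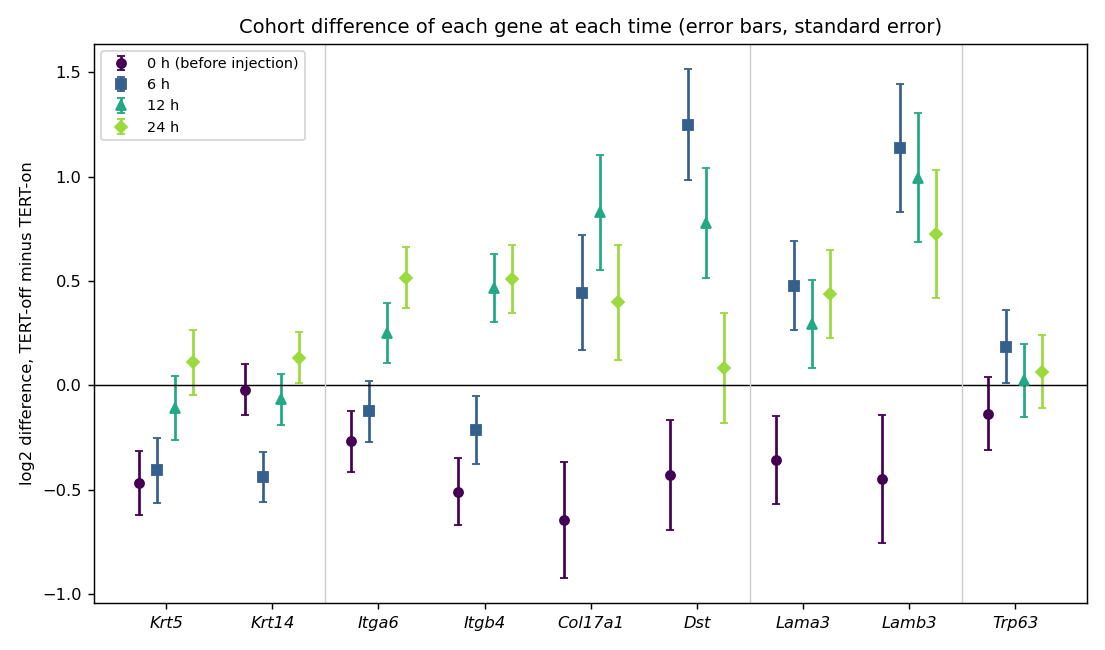
Log2 difference between TERT-off and TERT-on (y axis) for each gene at 0, 6, 12 and 24 h, with bars for the standard error; grey lines part keratins, hemidesmosome proteins, laminin-332 chains and Trp63. On the brightest probe set of each, all 9 genes are below 0 at 0 h. Dst has its highest point at 6 h (1.25) and Itga6 at 24 h (0.52).

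The change of this difference between 6 and 24 h was compared after the values were seen. It was -1.17 on the log2 scale for Dst (SE 0.36), 0.72 for Itgb4 (SE 0.22), 0.64 for Itga6 (SE 0.20), 0.57 for Krt14 (SE 0.17) and 0.52 for Krt5 (SE 0.21). The adjusted p was 0.301 for Dst and 0.269 or more for the others, so 0 of 9 members passed, where 0.215% of genes did (27). At an unadjusted p under 0.05 there were 5 members and 1307 of all 12580 genes. Of the other Dst probe sets, 1450119_at gave -1.49 (SE 0.39), while 1421276_a_at gave -0.32 (SE 0.39) and 1423626_at -0.38 (SE 0.36). Those last probe sets had their highest difference at 12 h (0.96 and 1.01), not at 6 h (0.87 and 0.90), so a peak of Dst at 6 h was seen on 2 of its 4 probe sets. The order in time is a description of these arrays.

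Before injection the values of Lamb3, Col17a1 and Dst lay in the opposite order, though no member was called at 0 h. At 0 h Lamb3 read 207 and 227 in the mice that were to receive doxycycline, against 275 and 318 in the mice that were to receive PBS. Col17a1 read 681 and 626 against 1123 and 928, and Dst 780.4 and 624 against 1074 and 823, in the same order of cohorts. In all 3 genes both TERT-off values were below both TERT-on values. The share of all genes parted in this way at 0 h was not counted.

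On their brightest probe sets all 9 members had a negative log2 difference (TERT-off minus TERT-on) at 0 h. It was -0.65 for Col17a1, -0.51 for Itgb4, -0.47 for Krt5, -0.45 for Lamb3 and -0.43 for Dst. For Lama3 it was -0.36, for Itga6 -0.27, for Trp63 -0.14 and for Krt14 -0.02. None passed (adjusted p = 0.537 to 0.971), where 0.0397% of all genes did (5). The share of all genes with a negative difference was not counted. Dimmer probe sets did not all share the sign. Itga6 on 1422444_at gave 0.01, Krt14 on 1455573_at 0.04 and on 1460347_at -0.24, and the dimmer Dst probe sets -0.62 to -0.34. The mean over the Trp63 probe sets gave 0.18. Krt5, Itgb4 and Col17a1 had an unadjusted p under 0.05, as did 996 of all 12580 genes. The 0 h array of TERT-on mouse 1 had a 5′ to 3′ Gapdh signal ratio of 0.0599, against 0.977 to 1.12 on the other 15 arrays. It held the highest 0 h value of Krt5, Krt14, Col17a1, Dst, Lama3 and Trp63. Without it the Trp63 difference at 0 h was 0.14, and the part of RNA quality in the 0 h levels was not tested.

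Set against the 0 h biopsies, 5 of the 6 anchoring genes gave changes of opposite sign in the 2 cohorts in every mouse, and Lama3 did not. The share of all genes with this pattern of signs was not counted. The changes of TERT-on mouse 1 start from its 0 h array, which had the Gapdh ratio of 0.0599. The mean change over 6 to 24 h in TERT-off mice was 0.91 for Col17a1 (SE 0.22), 0.81 for Dst (SE 0.21), 0.70 for Lamb3 (SE 0.24) and 0.66 for Itgb4 (SE 0.13) on the log2 scale. In TERT-on mice it was -0.29 for Col17a1 (SE 0.22), -0.32 for Dst (SE 0.21), -0.71 for Lamb3 (SE 0.24) and -0.10 for Itgb4 (SE 0.13). Both mice of each cohort had the sign of their cohort's mean in these 4 genes and in Itga6, where the changes were 0.22 in TERT-off mice and -0.27 in TERT-on mice (SE 0.11 each). For Itga6 this held on 1 of its 2 probe sets: the dimmer one, 1422444_at, gave 0.32 in both cohorts (SE 0.17 each). Lama3 changed by 0.07 in TERT-off mice (SE 0.17), with -0.13 in mouse 1 and 0.27 in mouse 2, and by -0.69 in TERT-on mice (SE 0.17).

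No member passed within a cohort on its brightest probe set. On these probe sets the smallest adjusted p in TERT-off mice was 0.0542, for Itgb4, and 0.493% of all genes were called (62). A dimmer Dst probe set, 1450119_at, did pass in TERT-off mice, by limma (1.19, SE 0.23, adjusted p = 0.0498). At an unadjusted p under 0.05 there were 6 members and 2245 of all 12580 genes. After quantile normalization (adjusted p = 0.0478) or centring on the median (0.0394) Itgb4 was called. In TERT-on mice the smallest adjusted p was 0.0766, for Lama3, and 0.183% of all genes were called (23). At an unadjusted p under 0.05 there were 4 members and 2470 of all 12580 genes. Krt14 changed by 0.26 in TERT-off mice (SE 0.10, adjusted p = 0.215) and by 0.36 in TERT-on mice (SE 0.10, adjusted p = 0.0856), and Krt5 by 0.44 in TERT-off mice and 0.11 in TERT-on mice.

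The difference of these changes, TERT-off less TERT-on, was 1.40 for Lamb3 (SE 0.34), 1.20 for Col17a1 (SE 0.31), 1.13 for Dst (SE 0.29), 0.76 for Itgb4 (SE 0.18), 0.76 for Lama3 (SE 0.24) and 0.48 for Itga6 (SE 0.16). It was 0.33 for Krt5 (SE 0.17), 0.23 for Trp63 (SE 0.19) and -0.10 for Krt14 (SE 0.14). Adjusted p-values of the 6 anchoring genes were 0.294 to 0.314, so 0 of 9 members were called, where 0.00795% of genes (1) was. All 6 anchoring genes, and none of the remaining 3, had an unadjusted p under 0.05, as did 1803 of all 12580 genes. The second Itga6 probe set gave -0.00016 (SE 0.24).

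Markers of other cells also changed from 0 h. The summed intensity of 8 muscle markers was 20296 and 21364 in TERT-off mice at 0 h, against 28218 and 31476 in TERT-on mice, whose later arrays held 12905 to 23197. Actn3, a fast muscle actinin, changed by -2.49 in TERT-on mice (SE 0.39, adjusted p = 0.0363) and by -0.40 in TERT-off mice (SE 0.39, adjusted p = 0.617). The median change of the 8 muscle markers was 0.25 in TERT-off mice and -1.15 in TERT-on mice. The median of 8 endothelial markers was 0.50 in TERT-off mice and -0.20 in TERT-on mice, with none called in either cohort, and that of 7 fibroblast markers 0.15 in TERT-off mice and -0.31 in TERT-on mice. The part of these cells in the changes of the anchoring genes was not tested.

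Within each array, the keratins were then set against the anchoring proteins, as the mean log2 intensity of Krt5 and Krt14 minus that of Itga6, Itgb4, Col17a1, Dst, Lama3 and Lamb3. The level of this value has no meaning across probe sets, and only its differences between arrays are read, as a description with no test. In TERT-off skin it was 2.44 and 2.51, then 3.13 and 2.84, then 3.28 and 2.95 at 6, 12 and 24 h (mouse 1 before mouse 2), against 3.51 and 3.28, then 3.79 and 3.56, then 3.28 and 3.60 in TERT-on skin. At 0 h it was 2.95 and 3.18 in TERT-off mice and 2.89 and 2.84 in TERT-on mice.

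The TERT-off mean was lower by a log2 difference of -0.64 over 6 to 24 h, and at 0 h it was above the TERT-on mean by 0.20. At 6 h both TERT-off arrays were below every other array, and both their lower keratin and their higher anchoring values entered into it. At 24 h the keratin means of all 4 mice lay within 12.08 to 12.24. The anchoring means were then 8.96 and 9.25 in TERT-off mice, against 8.80 and 8.51 in TERT-on mice. The keratin minus anchoring value did not part the cohorts at 24 h, since TERT-off mouse 1 and TERT-on mouse 1 met at 3.28 each.

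**Figure D4:**
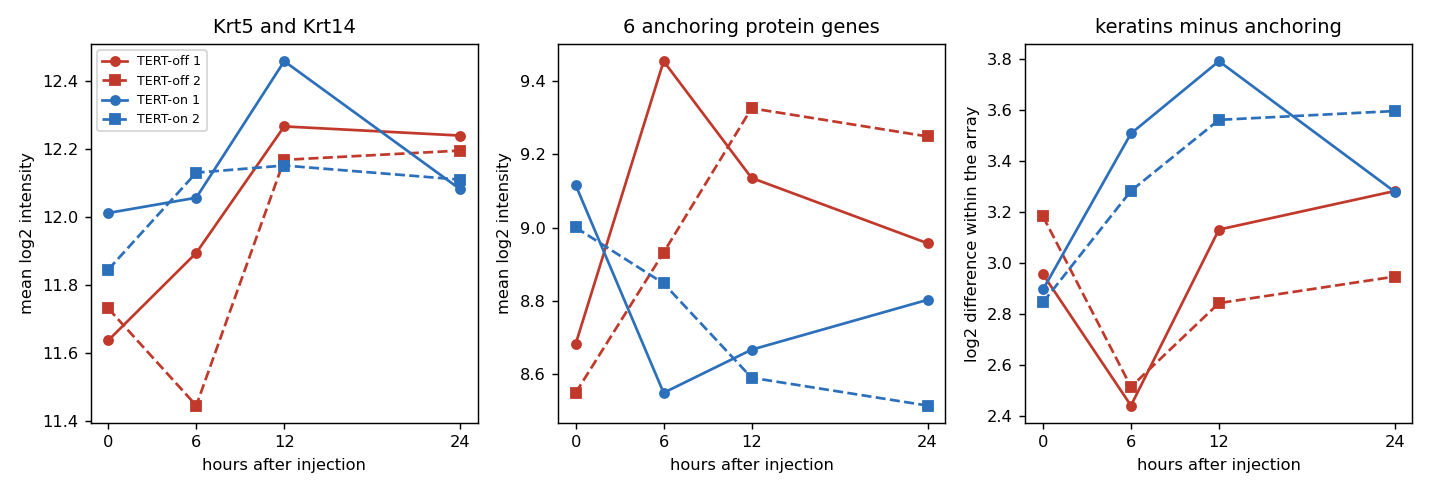
Mean log2 intensity of Krt5 and Krt14 (left), of the 6 anchoring genes (middle) and their difference within each array (right) against the hour of the biopsy, with each mouse as a line, red for TERT-off and blue for TERT-on. In the right panel the TERT-off mice are at 2.44 and 2.51 at 6 h and the TERT-on mice at 3.51 and 3.28.

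Across the 16 arrays the members fell into 2 loose sets by correlation of log2 intensity, given as a description since arrays of 1 mouse and 1 time are not independent. Krt5 and Krt14 correlated at 0.88 with each other. Col17a1 correlated at 0.82 with Lamb3, 0.76 with Itgb4 and 0.75 with Dst, and Dst at 0.79 with Lamb3. Krt5 correlated at -0.17 with Dst and 0.00 with Lamb3, and Itgb4 stood between the sets, at 0.66 with Krt5 and 0.72 with Itga6. Not every pair followed the sets. Itgb4 correlated at only 0.09 with Lama3 and 0.24 with Dst, Itga6 at 0.29 with Dst, and Krt5 at 0.41 with Col17a1. Trp63 correlated at 0.54 with Dst and 0.52 with Lama3.

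The 3 genes with the highest correlation with each member over the 16 arrays were taken as the most like it. For Lamb3 they were Tns1 (r = 0.96), which encodes the focal adhesion protein tensin 1, Gsn (0.94), which encodes the actin-severing protein gelsolin, and Fmo2 (0.94). For Dst they were Pnpla7 (0.94), Inpp5k (0.94) and Galnt15 (0.94), for Col17a1 Med15 (0.93), Smoc2 (0.92) and Aebp1 (0.92), and for Lama3 Cers6 (0.94), Exph5 (0.91) and Eif4g3 (0.90). For Krt5 they were Gltp (0.90), Krt14 (0.88) and Arpc2 (0.88), and for Krt14 Mul1 (0.90), Rpl6 (0.89) and Krt5 (0.88). Tns1 itself was higher in TERT-off skin over 6 to 24 h by 0.90 (SE 0.19), Fmo2 by 2.17 (SE 0.33) and Galnt15 by 2.33 (SE 0.31). These genes were picked by correlation with called members over the same arrays. A difference of the same sign was thus largely fixed by the choice and is no separate result. For Itga6 they were Ddx51 (0.86), Gpt2 (0.82) and Thbd (0.81), for Itgb4 Vdac2 (0.89), Gm13889 (0.88) and Fth1 (0.87), and for Trp63 Hipk1, Ist1 and Firre (0.81 to 0.82).

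Of 18 other measured hemidesmosome and basement membrane genes, 4 were called higher and 2 lower over 6 to 24 h. Nid1 (nidogen 1, a basement membrane linker) was higher by 0.70 (SE 0.15, adjusted p = 0.00871), Lamc1 (the laminin γ1 chain, which is not part of laminin-332) by 0.66 (SE 0.16, adjusted p = 0.0152) and Col7a1 (collagen VII of the anchoring fibrils) by 0.58 (SE 0.18, adjusted p = 0.0357). Lama5, the α5 chain, was lower, at -0.82 (SE 0.26, adjusted p = 0.0359). Lama5 was already at -0.77 (SE 0.41) at 0 h, before injection. Nid1 was then at -0.17, Lamc1 at -0.11 and Col7a1 at -0.17. Named after their values were seen, Itgb1 was higher by 0.43 (adjusted p = 0.0132) and Itga3, which binds laminin-332 outside hemidesmosomes, was lower, at -0.51 (adjusted p = 0.0163). Itga3 was already at -0.62 (SE 0.21) at 0 h, and Itgb1 at 0.01 (SE 0.17). Plec, the plectin that joins keratin to β4, gave -0.03 (SE 0.10) and the tetraspanin gene Cd151 -0.02 (SE 0.08), while Dst and Col17a1 of the same structure were called. The median of the 18 was 0.07.

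The desmosome, the cell to cell counterpart that also anchors keratin, showed calls in the opposite direction. Of 10 measured desmosome genes 5 were called lower and 0 higher, with Pkp2 at -1.16 (SE 0.22, adjusted p = 0.00568), Pkp3 at -0.96 (SE 0.16, adjusted p = 0.00415), Dsg2 at -0.65 (SE 0.12, adjusted p = 0.00528) and Jup, plakoglobin, at -0.44 (SE 0.12, adjusted p = 0.0212), and the list's median was -0.32. Before injection Pkp2 was already at -0.62 (SE 0.36), Pkp3 at -0.40 (SE 0.26) and Jup at -0.52 (SE 0.23). Dsg2 was then at 0.25 (SE 0.23), and none of these 0 h values was called. Among 7 other basal and outer root sheath keratins, Krt75 of the companion layer (-3.24, SE 0.72, adjusted p = 0.00972), Krt17 (-0.91, SE 0.20, adjusted p = 0.00859) and Krt6a (-0.36, SE 0.12, adjusted p = 0.0449) were lower, and Krt15, a keratin of basal cells and of the bulge, gave 0.48 (SE 0.19, adjusted p = 0.0875). At 0 h Krt75 was at -1.78 (SE 1.17), Krt17 at -0.70 (SE 0.32), Krt6a at -0.16 (SE 0.19) and Krt15 at -0.89 (SE 0.31). Of 16 measured targets and partners of p63, 2 were called higher and 6 lower. Dlx3 (-2.21, adjusted p = 0.00977), Sfn (-1.37, adjusted p = 0.00597) and Cdh3 (-0.87, adjusted p = 0.017) were among the lower ones, and Satb1 (1.19, adjusted p = 0.0122) was higher. Their 0 h values were -1.41 for Dlx3, -0.33 for Sfn, -0.61 for Cdh3 and -0.25 for Satb1.

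Markers of other skin cells were called in the same comparison. The dimmest measured marker of these lists, Cxcr2, averaged 18.5, above the floor of 7.71. At 0 h Cxcr2 showed no cohort difference at all, which values raised to the floor would give. Its mean thus does not place every array above the floor. Endothelial cells and Schwann cells use some of the member genes too, such as that of the integrin α6 chain. Of 8 endothelial markers 6 were called higher and 0 lower (median 0.59, Cldn5 1.13), and their summed intensity was 815 to 1360 in TERT-off skin and 606 to 870 in TERT-on skin after 0 h. Of 7 measured fibroblast markers 5 were called higher and 0 lower (median 0.59, Pdgfra 1.44), with sums of 20055 to 30532 in TERT-off skin and 12954 to 21192 in TERT-on skin. Of 5 measured Schwann cell markers Mbp (0.64) and Pmp22 (0.98) were called higher, while Sox10 (-0.29), Gfra3 and S100b were not called, with sums of 979 to 1693 in TERT-off skin and 770 to 999 in TERT-on skin. Of 8 muscle markers 3 were called higher (median 0.51), with sums of 14864 to 27765 in TERT-off skin and 12905 to 23197 in TERT-on skin.

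Of 6 measured neutrophil markers 5 were called higher (median 1.59), with sums of 1176 to 9316 in TERT-off skin and 481 to 1083 in TERT-on skin. Before injection the sum was already 795 and 1033 in TERT-off mice, against 177 and 358 in TERT-on mice, with log2 differences of 1.94 for S100a8 and 2.71 for S100a9 that did not pass (adjusted p = 0.312 and 0.255). Of 12 measured hair shaft keratins 11 were called lower (median -4.43), with sums of 274 to 22800 in TERT-off skin and 6490 to 30339 in TERT-on skin. TERT-off mouse 1 had hair keratin means of 4.33 on the log2 scale already at 0 h, against 8.76 to 10.73 in the other 3 mice, so the mice already differed in hair keratin level before injection. Of 10 suprabasal epidermal markers 4 were called lower, while Krt10 gave 0.08 (SE 0.10) and Krt1 0.26 (SE 0.18), and of 9 measured cell cycle genes 8 were called lower (median -0.75). The part of these cell types and of the hair cycle in the differences of the anchoring genes was not tested.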

How the data were processed

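Skin biopsies, taken as those of 4 mice by their replicate numbers, were measured on 16 Affymetrix whole-genome mouse arrays, 1 per biopsy. The deposited values are linear intensities that the authors made in dChip by invariant set normalization and the PM/MM difference model; versions are not given in the sources used here. Of 45101 probe sets, 34958 had 1 gene symbol in the platform annotation, 932 several and 9211 none, and symbols were updated through gene IDs for 34754.

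Intensities below a floor, the 20th percentile of all deposited values (7.71), were raised to it, which touched 0.298% of the values of the probe sets kept, and log2 was taken. Empty cells (1425) stayed empty. Probe sets above the table's median (34.4) on at least 2 arrays, with a value in every group, were kept (25563, for 12580 genes, each read on its brightest probe set), and control probe sets (64) were left out. The comparisons were fitted by limma 3.58.1 (statmod 1.5.0, R 4.3.3) with 8 group means, eBayes with a trend, and a random block for the mouse, whose arrays had a consensus correlation of 0.0728, two-sided, with Benjamini-Hochberg adjustment over all probe sets kept. A call was an adjusted p under 0.05. The study used SAM on the time course; limma was used here so that all comparisons share 1 estimate of the spread. The fit was tested on simulated data.

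The members and the gene lists were chosen with earlier results of these data known. The text names all 9 members, from each list up to 4 called genes with the largest difference over 6 to 24 h, other genes where it says so or as uncalled or defining examples, and for each member the 3 genes with the highest Pearson correlation over the 16 arrays. Alternatives were the floor, the filter, quantile normalization, centring on the median, the mouse and replicate blocks, 1 mean per mouse, leaving out each mouse or the 0 h array of TERT-on mouse 1, and the mean over probe sets. The number of arrays limits the precision. Motifs were searched on both strands of the RefSeq promoter windows.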

Additional observations from a re-analysis of the deposited data

Results flagged for a closer look

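In 5 members the mean change from 0 h to 6 to 24 h was positive in both TERT-off mice and negative in both TERT-on mice. The difference of the changes, TERT-off less TERT-on, was 1.40 for Lamb3, 1.20 for Col17a1, 1.13 for Dst, 0.76 for Itgb4 and 0.48 for Itga6 on the log2 scale. The difference was tested by limma and passed in none of them (adjusted p = 0.294 to 0.314), while the unadjusted p was 0.0116 or less in each. For Lamb3 the changes were 0.86 and 0.53 in TERT-off mice and -0.59 and -0.82 in TERT-on mice, for Col17a1 0.89 and 0.93 in TERT-off mice and -0.40 and -0.19 in TERT-on mice, and for Dst 0.57 and 1.05 in TERT-off mice and -0.47 and -0.18 in TERT-on mice. In Itgb4 they were 0.67 and 0.65 in TERT-off mice and -0.06 and -0.15 in TERT-on mice, and in Itga6 0.15 and 0.29 in TERT-off mice and -0.22 and -0.31 in TERT-on mice. The Itga6 values are those of the brighter of its 2 probe sets; the dimmer one, 1422444_at, gave a difference of -0.00016 and changes of 0.32 in both cohorts. In part these values start from the lower 0 h levels of the TERT-off mice, and with 1 biopsy per mouse at 0 h that level has no replicate within a mouse. The changes of TERT-on mouse 1 start from its 0 h array, which had the low Gapdh ratio of 0.0599. The share of all genes with this pattern of signs was not counted.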

How the results depend on the processing

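Members called over 6 to 24 h were 4. They were 3, without Lama3, after quantile normalization, centring on the median or with 1 mean per mouse, 5, with Trp63, with the mean over probe sets, 2 with no filter on low values, and 0 to 4 when a mouse was left out, with 38 to 4421 genes called in all against 3710. At 6 h 1 member was called, 0 with no filter, with arrays centred on the median, with the mean over probe sets or with crossed numbers as a block, and 0 to 3 without a mouse. At 24 h the count was 0, and 0 to 1 without a mouse. In the change from 0 h in TERT-off mice it was 0, and 1 after quantile normalization or centring.

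The replicate numbers did not pair the cohorts: same-numbered arrays at the same time had deviations correlated at -0.12 to 0.11. With a replicate block the genes called were 385 at 6 h against 219, 897 at 12 h against 323, 625 at 24 h against 304, and 34 in the change from 0 h in TERT-off mice against 62, and the same 4 and 1 members were called over 6 to 24 h and at 6 h. As the correlation was below -0.1 at 6 h, the numbers were crossed there after seeing the data, with 81 genes called. With no filter the genes called were 65, 28 and 76 at 6, 12 and 24 h, 19 for the TERT-off change, 2 for the difference of the changes against 1 and 17 for the change between 6 and 24 h against 27. With no mouse block they were 30 for the TERT-off change, 10 for the TERT-on change against 23, 0 for the difference of the changes and 14 between 6 and 24 h, and with the mouse as a fixed block 24, 13, 0 and 17. Centring gave 0 for the difference of the changes, and the mean over probe sets 5 for the TERT-on change. Without the 0 h array of TERT-on mouse 1 the genes called were 1 at 0 h against 5, 0 for the TERT-on change and 0 for the difference of the changes.

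Without TERT-off mouse 1, TERT-off mouse 2, TERT-on mouse 1 and TERT-on mouse 2 in turn, the genes called were 0, 1881, 0 and 1 at 6 h. The lowest and highest counts without a mouse were 0 and 512 at 12 h, 0 and 449 at 24 h, 1 and 137 at 0 h, 8 and 21 for the TERT-off change, 0 and 47 for the TERT-on change, 0 and 11 for the difference of the changes and 0 and 17 between 6 and 24 h, with each count of 0 from leaving out a TERT-on mouse, except that between 6 and 24 h it also came without TERT-off mouse 2.

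Signs turned only in members that were not called there. With the mean over probe sets Krt14 was 0.042 over 6 to 24 h, 0.088 at 12 h and 0.12 in the difference of the changes, Trp63 was 0.18 at 0 h and 0.10 in the TERT-on change, and Itga6 was 0.029 in the TERT-on change. Quantile normalization gave Trp63 -0.023 at 12 h and -0.011 in the TERT-off change, Krt14 0.045 at 0 h and Lama3 0.034 between 6 and 24 h, and centring gave Trp63 -0.040 at 12 h. Without the 0 h array of TERT-on mouse 1 Trp63 was 0.14 at 0 h, 0.13 in the TERT-on change and -0.053 in the difference of the changes.

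Leaving out a mouse leaves 1 array in each group of its cohort, which is taken to vary like the other groups, and turned these signs. At 6 h Col17a1 lay between -0.025 and 0.91. At 12 h Krt5 lay between -0.26 and 0.044, Krt14 between -0.22 and 0.088 and Trp63 between -0.033 and 0.081. At 24 h Dst lay between -0.20 and 0.36 and Trp63 between -0.092 and 0.22. At 0 h Krt14 lay between -0.046 and 0.0041 and Trp63 between -0.43 and 0.16. In the TERT-off change Lama3 lay between -0.13 and 0.27 and Trp63 between -0.031 and 0.19, in the TERT-on change Krt5 between -0.0095 and 0.22 and Trp63 between -0.36 and 0.064, and in the difference of the changes Krt14 between -0.22 and 0.0087. Between 6 and 24 h Col17a1 lay between -0.77 and 0.69, Lama3 between -0.29 and 0.21, Lamb3 between -0.98 and 0.16 and Trp63 between -0.26 and 0.022.

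The keratins less the anchoring genes differed by -0.64 over 6 to 24 h, by -0.55 with the mean over probe sets and by -0.74 to -0.55 without a mouse, and by 0.20 at 0 h, or 0.085 to 0.31 without a mouse. The cause of these shifts was not tested beyond the smaller number of arrays or genes that an alternative leaves. With 2 mice per cohort and 2 arrays per group, values at a single time rest on 1 biopsy of each mouse.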

Other observations

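Other basal and outer root sheath keratins had time courses of their own. Krt16, a keratin of outer root sheath and of activated epidermis, read 1770 and 1657 in TERT-off skin at 24 h, against 155 and 281 in TERT-on skin. At 6 h it read 421 and 118 in TERT-off skin, against 648 and 386 in TERT-on skin. The log2 difference was 3.04 at 24 h (adjusted p = 0.0294, limma) and -1.17 at 6 h (adjusted p = 0.272). Its partner Krt6b read 5409 and 4907 in TERT-off skin at 24 h, against 194 and 1228 in TERT-on skin. The log2 difference was 3.40 and did not pass (adjusted p = 0.0757). Before injection the difference was already 0.99 for Krt16 (SE 0.59) and 1.25 for Krt6b (SE 0.90), neither of them called. From 0 h to the mean of 6 to 24 h both genes rose in both cohorts. Krt16 changed by 1.65 in TERT-off mice and by 2.17 in TERT-on mice. Krt6b changed by 1.69 in TERT-off mice and by 1.99 in TERT-on mice.

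Krt15, found in basal cells and in the bulge, read 4293 and 2539 in TERT-off skin at 6 h, against 1594 and 2535 in TERT-on skin. At 0 h it read 1041 and 1861 in TERT-off mice, against 2468 and 2681 in TERT-on mice, so its cohort difference turned sign after injection as in the anchoring genes. The difference of its changes was 1.36 on the log2 scale and did not pass (adjusted p = 0.294). These genes were singled out after their values were seen.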
